A study of Apis mellifera with 10 samples.

Results

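Of 12332 honey bee (Apis mellifera) genes in the count tables, 54 protein-coding genes were set apart. Their share of the assigned reads was at least 25% higher in every orco_KO library than in any control library. They were chosen by this difference between the groups, within limits on span and control level. A gene had to have a span below 200000 bases, a mean control level of at least 10 CPM (reads per 1000000 reads assigned to bee genes), and a lowest orco_KO CPM that exceeded its highest control CPM by at least 25%. Of 4981 protein-coding genes that met the limits on span and level, 54 had that gap, which is 1.08%. Br-c, GstS1, mGlutR1 and the cuticle protein genes named CPR or Cpap3 had been left out in advance. Of the 13 such genes within the limits, only GstS1 would have met the gap. Because the difference between the groups chose these genes, their differences are given below as descriptions and not as tests.

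The libraries were made from antennae of adult bees taken at most 24 hours after emergence. All bees were injected as embryos and reared in the laboratory. In 5 libraries (orco_KO replicates 3, 5, 9, 11 and 12) the embryos received a CRISPR ribonucleoprotein aimed at the gene orco, and in 5 (control replicates 3 to 7) they received injection buffer alone. The control embryos received no ribonucleoprotein, so the loss of orco and the delivery of a ribonucleoprotein cannot be told apart in this design. Strain, sex, caste, the allele carried by each bee and the number of bees in a library are not given in the sources used here, so the spread between libraries may be partly technical. Reads assigned to bee genes ranged from 8577416 to 23453690 per library. The target, listed as Or2 at linkage group 1, positions 5723757 to 5749095 of Amel_HAv3.1, had 387 ± 43.9 CPM in the control libraries against 22.4 ± 9.67 CPM in the orco_KO libraries (SD, n = 5 each).

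The antenna is the main organ of smell in insects. Its olfactory neurons carry odorant receptors that depend on the coreceptor Orco to reach the dendrite and to open as ion channels, and these neurons sit in sensilla together with support cells beneath the cuticle. Only 2 of the 54 genes carry a symbol other than an LOC number in the RefSeq gene table, namely Emc and Reck, and no role is stated here for the other genes. In Drosophila, emc encodes a helix-loop-helix protein without a DNA-binding region, which holds back the proneural factors that start sense organ formation. In mammals, Reck encodes a membrane-anchored protein that inhibits matrix metalloproteinases.

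Emc lies at linkage group 1, positions 821805 to 824037, on the reverse strand. Control replicates 3 to 7 had 74.8, 75.2, 63.0, 69.5 and 71.6 CPM, against 111, 109, 128, 105 and 106 CPM in orco_KO replicates 3, 5, 9, 11 and 12. The control libraries lay close together, and orco_KO replicate 9 was the highest of its group. The mean was 1.58 times that of controls. Emc had the second shortest span of the 54, and per kilobase of span its level was 31.7 CPM in the controls against 50.1 CPM in orco_KO.

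Reck, at linkage group 14, positions 9410152 to 9423385 on the reverse strand, was at 43.2, 55.6, 52.2, 60.7 and 48.0 CPM in control replicates 3 to 7. In orco_KO replicates 3, 5, 9, 11 and 12 it was at 113, 117, 92.9, 79.6 and 81.9 CPM. Replicates 3 and 5 were the highest, and the lowest orco_KO library stood 1.31 times above the highest control. The mean ratio of orco_KO to control was 1.87. Reck shares part of its span with 2 genes on the opposite strand. LOC410549 had fewer reads in orco_KO than in controls (28.0 ± 5.92 CPM against 44.0 ± 8.16 CPM; SD, n = 5), and LOC727008 was at 112 ± 22.7 and 121 ± 9.36 CPM.

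**Figure D1:**
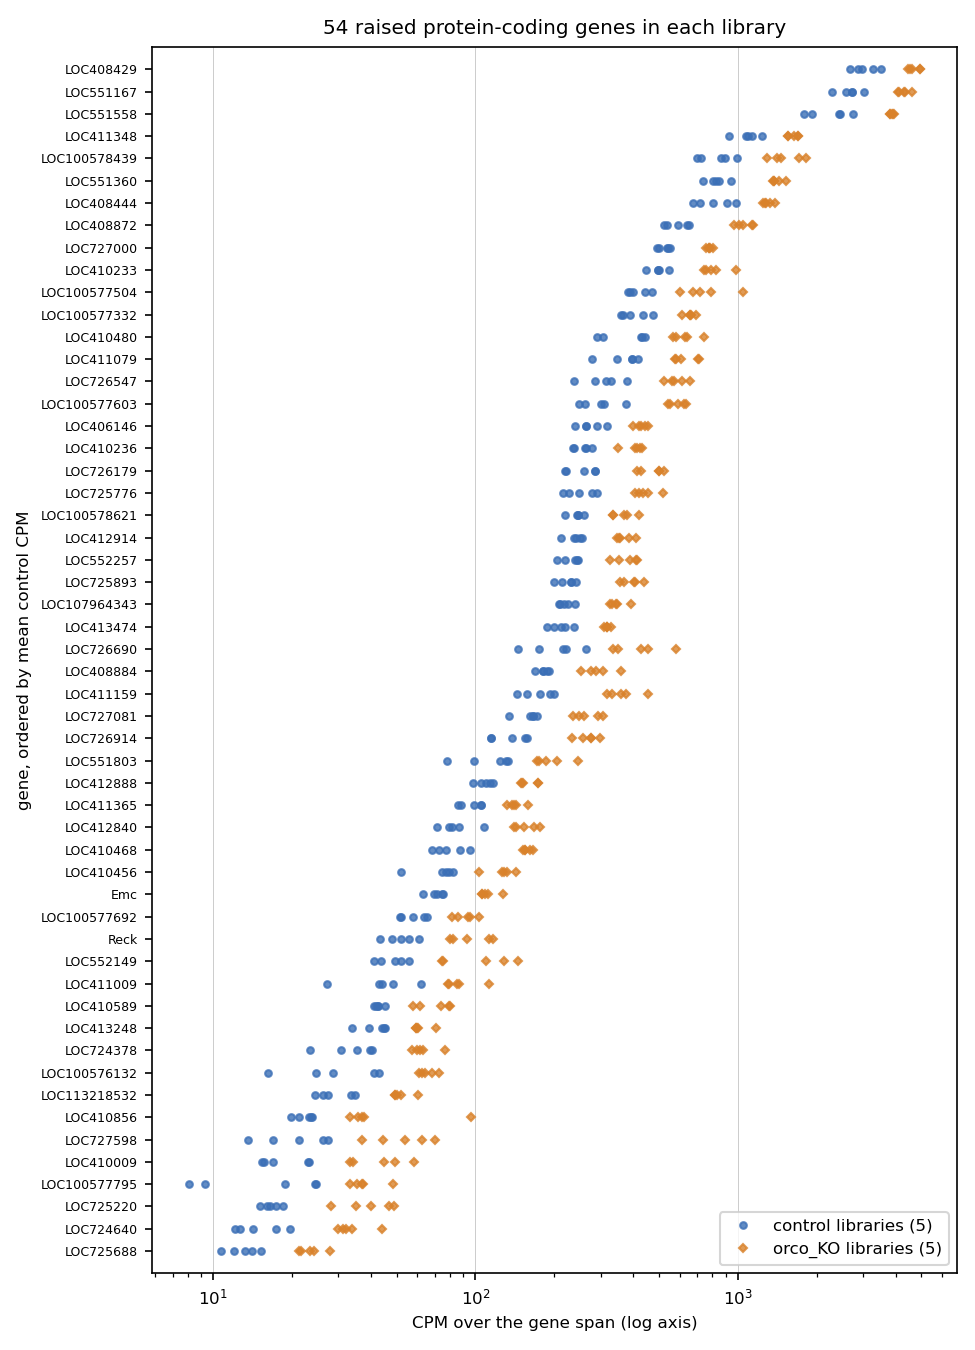
CPM over the gene span in each of the 10 libraries (log axis) for the 54 genes, ordered by mean control CPM. Circles are the 5 control libraries and diamonds the 5 orco_KO libraries. The groups do not overlap in any gene, as the rule required, and LOC410856 has a single orco_KO library at 96.4 CPM far to the right of the others.

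The differences were moderate in size. The ratio of mean orco_KO to mean control CPM ran from 1.47 to 2.54 with a median of 1.74, against a median of 0.919 over all 4981 genes within the limits. On the log2 scale these medians were 0.80 and -0.12. The ratio was at least 2 in 10 genes, between 1.5 and 2 in 39 and below 1.5 in 5. Of all 4981 genes within the limits, 65 had a ratio of at least 2, these 10 included. Such a ratio was not enough to meet the rule: the 55 other genes that had it failed the gap. LOC102655185 had the largest ratio of these, 3.07, with controls from 0.853 to 60.9 CPM and orco_KO libraries from 7.40 to 192 CPM. LOC725964 came next, with 213 ± 22.3 CPM in the controls against 632 ± 487 CPM in orco_KO (SD, n = 5). These 2 genes were picked out after their values were seen.

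The mirrored rule, with the lowest control at least 25% above the highest orco_KO library, was met by 293 of the 4981 genes (5.88%). Among those the median ratio of orco_KO to control was 0.319. With these limits and library sums, they were both more numerous and farther from controls than the 54 raised genes. Both rules set the floor of 10 CPM on the control mean, so genes raised from below it were not counted. The median ratio over all 4981 genes was 0.919, and the count of the mirrored rule is not given under other scalings.

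The 3 most highly counted genes held 40.5% of the reads of the 54 in controls and 39.2% in orco_KO. LOC408429, at linkage group 13, positions 6004509 to 6151702 on the reverse strand, was at 3269, 3524, 2990, 2873 and 2672 CPM in control replicates 3 to 7. It was at 4559, 4475, 4976, 4973 and 4627 CPM in orco_KO replicates 3, 5, 9, 11 and 12. Its lowest orco_KO library exceeded its highest control by a factor of 1.27, and the gene table lists 16 transcripts for it.

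LOC551167 (linkage group 2, positions 13438449 to 13494272, forward strand) was at 3033, 2719, 2597, 2739 and 2297 CPM in the controls. In orco_KO it was at 4610, 4301, 4338, 4114 and 4090 CPM. Both groups were narrow, with a coefficient of variation of 9.93% in controls and 4.88% in orco_KO.

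With library sums, LOC551558 (linkage group 1, positions 16784763 to 16899856, reverse strand) had the most even orco_KO values of the 54. The same held among all 4981 genes within the limits. LOC551558 was at 3916, 3891, 3960, 3802 and 3825 CPM, a coefficient of variation of 1.68%. This ranking is not given under other scalings. The controls were less even, with 2751, 2449 and 2428 CPM in replicates 3, 4 and 5 but 1918 and 1790 CPM in replicates 6 and 7.

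The next in level were LOC411348 with 1092 ± 111 and 1631 ± 76.1 CPM, LOC100578439 with 835 ± 122 and 1542 ± 221 CPM, and LOC551360 with 831 ± 76.2 and 1415 ± 67.3 CPM (control, then orco_KO; SD, n = 5 each). LOC408444 was at 819 ± 130 and 1305 ± 53.5 CPM, LOC408872 at 590 ± 58.3 and 1061 ± 77.5 CPM, LOC727000 at 525 ± 26.8 and 781 ± 17.8 CPM, and LOC410233 at 498 ± 35.7 and 821 ± 99.4 CPM. Order by CPM reflects length as well as abundance. Per kilobase of span, LOC100578439 and LOC726690 had the highest values of the 54 in controls (60.7 CPM per kilobase each). LOC551167 followed at 48.0, and LOC408429 was at 20.8. The lowest was LOC410856, at 0.176 CPM per kilobase in controls. The span includes introns, so these values do not rank the genes by transcript abundance.

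The 10 genes with the largest mean ratio were mostly of low level. LOC727598 led with a ratio of 2.54: it was at 26.3, 21.3, 27.4, 16.9 and 13.6 CPM in control replicates 3 to 7 and at 62.3, 44.5, 54.0, 36.9 and 69.8 CPM in orco_KO replicates 3, 5, 9, 11 and 12. Both groups were spread widely, and its lowest orco_KO library was 1.35 times its highest control. LOC725220 (ratio 2.38) had even controls, from 15.1 to 18.4 CPM, and scattered orco_KO libraries, from 28.0 to 48.9 CPM. LOC410009 (ratio 2.34) was between 15.4 and 23.2 CPM in controls and between 33.3 and 58.5 CPM in orco_KO. LOC724640 (ratio 2.25) was between 12.1 and 19.7 CPM in controls and between 29.9 and 43.8 CPM in orco_KO.

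LOC100577795 had the widest controls of the 54, with a coefficient of variation of 47.1%. Control replicates 3, 4 and 5 had 24.6, 24.5 and 18.7 CPM, but replicates 6 and 7 had 9.27 and 8.06 CPM. Its ratio of 2.24 takes in these 2 low controls. LOC100576132 (ratio 2.14) showed the same order, with 28.6, 42.7 and 41.2 CPM in the first 3 controls and 24.7 and 16.2 CPM in replicates 6 and 7, against 61.1 to 72.5 CPM in orco_KO.

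LOC410856 (ratio 2.14) had 1 library far above the rest. Its orco_KO values were 37.5, 35.6, 33.2, 96.4 and 36.8 CPM in replicates 3, 5, 9, 11 and 12, and its controls were between 19.7 and 23.9 CPM. LOC552149 (ratio 2.20) was at 74.3 and 74.96 CPM in orco_KO replicates 3 and 5 and at 128, 145 and 110 CPM in replicates 9, 11 and 12, with controls from 41.0 to 55.8 CPM.

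The gene with the widest gap was LOC411159, at linkage group 6, positions 10268943 to 10311840 on the reverse strand. It was at 158, 192, 176, 144 and 199 CPM in control replicates 3 to 7 and at 317, 454, 332, 375 and 358 CPM in orco_KO replicates 3, 5, 9, 11 and 12. Its lowest orco_KO library was 1.595 times its highest control, and its mean ratio was 2.11. LOC410468 followed with a gap of 1.58 and orco_KO values that hardly differed, from 151 to 166 CPM (coefficient of variation 3.72%), against controls of 68.35 to 95.7 CPM. A gap above 1.5 was otherwise seen only in LOC725220 (1.52) and LOC724640 (1.52). LOC726914 (1.49), LOC408872 (1.48), LOC725893 (1.47), LOC726179 (1.44), LOC551360 (1.44) and LOC100577603 (1.44) came next.

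The limit does not mark a break in the values. Just inside it were LOC100577692, whose lowest orco_KO library had 81.7 CPM and whose highest control had 65.3 CPM, LOC410456 (103 and 82.3 CPM) and LOC411365 (132 and 105 CPM). LOC406146 and LOC411348 followed, both with a gap of 1.257. Just outside were LOC408981 (1.249), LOC100578600 (1.247), LOC410133 (1.243), LOC411277 (1.243) and LOC725479 (1.241), with mean ratios of 1.52, 1.37, 1.79, 1.68 and 1.87. In all, 262 of the 4981 genes (5.26%) were higher in orco_KO without overlap of the groups, and the 54 are the part of these with the widest separation.

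Counts were not the limit for these genes. The lowest read count of any of the 54 in any library was 114, and the median over the genes of their lowest library was 1764 reads. Spread within groups was small, which the rule favours: the median coefficient of variation was 12.3% in controls and 9.74% in orco_KO, against 25.2% and 19.7% over all genes within the limits. The orco_KO libraries were less scattered than the controls in 34 of the 54 genes (63.0%), and in 68.3% of all genes within the limits.

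Together the 54 genes took 1.79% to 2.12% of assigned reads in the control libraries and 3.21% to 3.34% in the orco_KO libraries. Among controls the share was lowest in replicate 7 (1.79%) and replicate 6 (1.91%), and it was 2.12%, 2.10% and 1.97% in replicates 3, 4 and 5. The orco_KO shares were 3.31%, 3.34%, 3.31%, 3.27% and 3.21% in replicates 3, 5, 9, 11 and 12, so no orco_KO library stood apart. In bulk tissue a larger share of cells that contain these transcripts and more transcript per cell cannot be told apart.

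**Figure D2:**
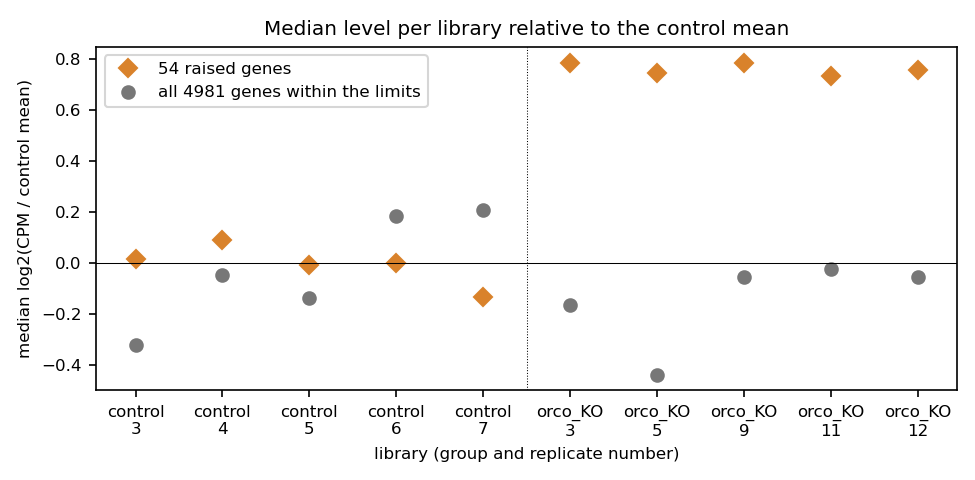
Median over genes of the log2 ratio of a library's CPM to the control mean, for the 54 raised genes (diamonds) and for all 4981 genes within the limits (circles), in each library. The raised genes lie between 0.73 and 0.79 in the 5 orco_KO libraries, while the median of all genes differs between libraries of the same group, from -0.32 to 0.21 among controls.

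The controls did not treat these genes as they treated most genes. Over all 4981 genes the median log2 ratio to the control mean was 0.18 in control replicate 6 and 0.21 in replicate 7, and -0.32 in replicate 3. Over the 54 it was 0.00 in replicate 6, -0.13 in replicate 7 and 0.02 in replicate 3. Control replicates 6 and 7 were both above the other 3 controls in 53.2% of all genes within the limits and in 6 of the 54 (11.1%), and both below in 12.9% of all genes and in 18 of the 54 (33.3%). Replicate 7 alone was the lowest control in 23 of the 54 genes (42.6%) and in 12.2% of all genes within the limits. The rule compares orco_KO with the highest control, so genes with high values in replicates 6 and 7 could seldom meet it, and this pattern is in part the rule's own.

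Among the genes where replicates 6 and 7 were the lowest controls were LOC551558, LOC408429, LOC100578439, LOC408444, LOC408872, LOC727000, LOC410468 and LOC727598. The 6 with both as the highest controls were LOC725776, LOC411365, LOC726914, LOC413248, LOC726179 and LOC406146. LOC726179, for example, was at 221, 258, 219, 286 and 285 CPM in control replicates 3 to 7 and at 430, 413, 524, 502 and 502 CPM in orco_KO replicates 3, 5, 9, 11 and 12.

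Scaling decided how far apart the groups lay. Effective library sizes by TMM, a method that lines up the bulk of genes, differed from read totals by factors of 0.787 in control replicate 3 to 1.26 in control replicate 7. With TMM scaling all 54 genes still had a higher mean in orco_KO, with a median log2 ratio of 0.86, but the groups overlapped in 7 genes and the gap that the rule asks for was met by 17. With the size factors of DESeq2 the groups were apart in 50 genes and 19 met the gap. Over all genes within the limits under the same scaling, the gap was met by 0.778% with TMM and 1.07% with DESeq2. The share of all genes without overlap is not given under these scalings. The 54 were chosen on the same contrast, so these counts only describe them. The median coefficient of variation of the 54 in controls was 12.3% with library sums and 23.9% with TMM, while over all genes it was 25.2% and 22.2%. Relative to the median of all genes, which was -0.12, -0.05 and 0.01 on the log2 scale under library sums, TMM and DESeq2, the 54 were higher by 0.92, 0.91 and 0.91.

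**Figure D3:**
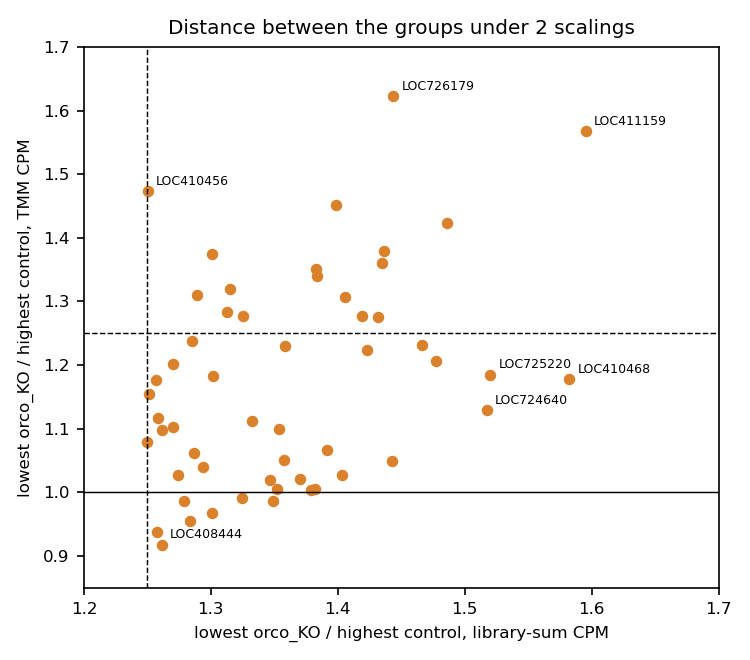
Lowest orco_KO CPM divided by highest control CPM for each of the 54 genes, with library sums (x axis) and with TMM-scaled library sizes (y axis); dashed lines mark the limit of the rule and the solid line marks 1. All 54 lie at or right of the limit on the x axis by the rule, 17 lie above it on the y axis and 7 lie below 1.

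The genes that met the gap under both scalings included LOC726179, where it was wider with TMM (1.62), LOC411159 (1.57), LOC410456 (1.47), LOC725776 (1.45), LOC726914 (1.42), LOC100577603 (1.38), LOC412840 (1.37), LOC410009 (1.36), LOC726547 (1.35) and Reck (1.28). LOC410456, which stood at the very edge of the rule, was among the widest with TMM. The groups overlapped with TMM in LOC408444 (0.918), LOC411348 (0.938), LOC100577504 (0.955), LOC100578439 (0.968), LOC412888 (0.986), LOC551167 (0.987) and LOC552257 (0.992). Emc stood between, at 1.03.

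By edgeR's quasi-likelihood test with TMM scaling, 48 of the 54 passed an adjusted p of 0.05 as higher, where 4.57% of all 9222 tested genes and 5.84% of the 4980 tested genes within the limits did. This count uses the contrast that chose the genes and supports nothing further. It was 54 with library sums alone, where 403 of all tested genes were called higher. Without control replicates 6 and 7 it was 29, where 200 of all tested genes were called higher.

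The 54 genes were long. Their median span from start to end, introns included, was 39330 bases, against 6656 bases over all genes within the limits and 13454 bases among the 293 genes under the mirrored rule. A span above 50000 bases was found in 26 of the 54 (48.1%) and in 10.9% of all genes within the limits. A span under 5000 bases was found in 6 of the 54, and in 38.6% of all. The shortest were LOC113218532 (2099 bases) and Emc (2233 bases), and the longest was LOC410480 (175217 bases).

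With the genes divided into 4 bins of equal number by span, from shortest to longest, the rule was met by 5 of 1246, 1 of 1245, 9 of 1245 and 39 of 1245 genes, or 0.401%, 0.0803%, 0.723% and 3.13%. Long genes also carry more reads when reads are counted over the whole span. In 4 such bins of mean control CPM, from lowest to highest, the shares were 0.401%, 0.482%, 0.964% and 2.49%. Within each bin of CPM, genes at or above the median span met the rule more often than shorter ones. The counts were 4 of 279 (1.43%) against 1 of 967 (0.103%) in the lowest bin. In the highest they were 30 of 1059 (2.83%) against 1 of 186 (0.538%). Only 1 or 2 shorter genes met the rule in each bin. The mirrored rule was also met more often by long genes, with 2.89% in the shortest and 10.8% in the longest bin. The median log2 ratio of all genes in the longest bin was 0.07, against -0.14 in the shortest. Reads from introns and from exons are not separated in these tables and cannot be told apart.

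**Figure D4:**
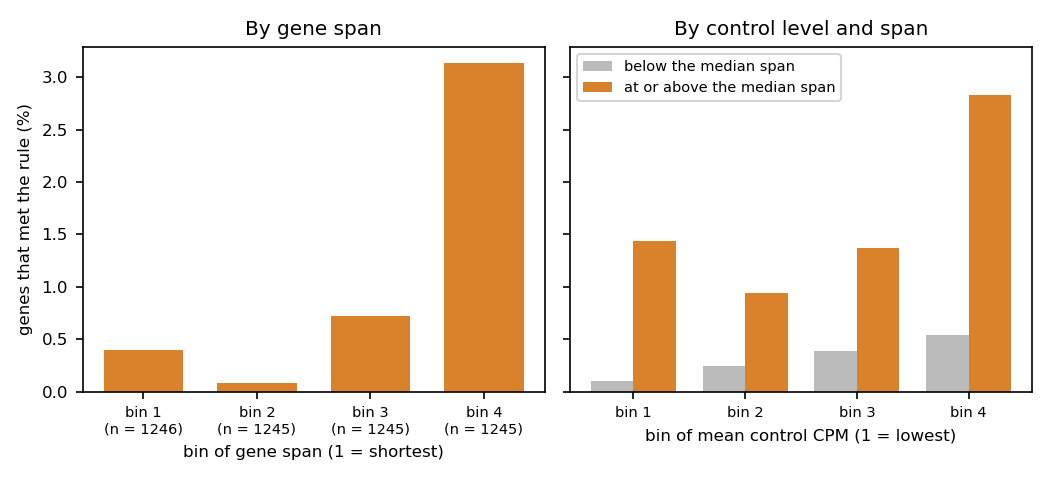
Share of genes within the limits that met the rule, by bin of gene span (left, 4 bins of equal number) and by bin of mean control CPM, split at the median span of 6656 bases (right). The share is 3.13% in the longest bin, and in each CPM bin it is higher at or above the median span than below it. Each bar below the median span rests on 1 or 2 genes.

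The gene table lists a median of 3 transcripts per gene for the 54 and 2 for all genes within the limits. LOC726547 had the most, with 18, followed by LOC408429 with 16 and LOC727000 with 14. A single transcript was listed for 12 of the 54 (22.2%) and for 37.9% of all. On the reverse strand lay 35 of the 54, and 2448 of the 4981.

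The 54 genes were spread over 14 linkage groups. Linkage group 13 held 8 of them among 185 genes within the limits (4.32%), linkage group 10 held 7 of 308 (2.27%), linkage group 6 held 6 of 275 (2.18%) and linkage group 1 held 7 of 628 (1.11%). None lay on linkage group 12, with 196 genes within the limits, or on linkage group 16, with 132. Most members were far apart: of 40 pairs of successive members on the same linkage group, 3 were closer than 100000 bases, and all 3 were on linkage group 13.

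LOC727598 (positions 10738114 to 10742837) and LOC726690 (10743345 to 10746710) on linkage group 13 lie on the reverse strand 507 bases apart. They were the closest members, and the only ones that followed each other directly in order of start position among protein-coding genes. LOC726690 was at 221, 175, 215, 264 and 146 CPM in control replicates 3 to 7 and at 428, 350, 581, 333 and 455 CPM in orco_KO replicates 3, 5, 9, 11 and 12, a ratio of 2.10. Both had their lowest control in replicate 7 and their lowest orco_KO value in replicate 11, but LOC727598 was highest in orco_KO replicate 12 and LOC726690 in replicate 9.

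Another stretch of linkage group 13 held LOC408429, LOC726547 and LOC410456, all on the reverse strand, with 21382 bases between the first and the second and 83473 bases between the second and the third. No protein-coding gene lay wholly within either interval. LOC726547 (positions 6173085 to 6242865) was at 313, 378, 327, 285 and 238 CPM in control replicates 3 to 7 and at 522, 563, 569, 658 and 613 CPM in orco_KO replicates 3, 5, 9, 11 and 12, with a ratio of 1.90. LOC410456 (6326339 to 6354364) was at 51.8, 79.2, 74.8, 77.1 and 82.3 CPM in controls and at 142, 103, 128, 132 and 126 CPM in orco_KO. The genes on the forward strand in the same stretch gave other values: LOC408430, which overlaps the end of the second by 1055 bases and runs towards the third, had 832 ± 54.0 CPM in the controls against 567 ± 84.8 CPM in orco_KO, and LOC410454, inside LOC408429, was at 555 ± 88.5 and 686 ± 156 CPM (SD, n = 5).

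The neighbours, meaning the protein-coding genes just before and after each member in order of start position, gave mixed values. A neighbour in this order is not always the nearest gene. LOC726547, for example, was paired with LOC410454, 46485 bases away and inside LOC408429, though LOC408429 itself lies 21382 bases away. Leaving out LOC727598 and LOC726690, which are members and neighbours of each other, 50 neighbours were within the same limits on span and level. Of these 26 (52%) had a higher mean in orco_KO, against 36.9% of all genes within the limits, and their median ratio was 1.01. LOC410237, beside LOC410236 on linkage group 10, had a ratio of 2.63 (431 ± 147 CPM against 164 ± 54.8 CPM; SD, n = 5) but a gap of 1.13. LOC410202, beside LOC100577603, had a ratio of 0.241.

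Of the 54 genes 21 overlapped another annotated gene. In 5 (LOC411348, LOC412888, LOC413248, LOC408429 and LOC410480) the other gene lay on the same strand, which leaves the shared stretch uncounted, and all of those nested microRNA and long noncoding RNA genes were listed at 0 reads in every library. LOC411348 carries the microRNA genes Mir12, Mir3477 and Mir283 in this way. In 19 the other gene lay on the opposite strand, and the 15 opposite partners within the limits had ratios from 0.635 to 1.77 with a median of 1.12.

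LOC727000, on the reverse strand of linkage group 9 (positions 11841389 to 11991200), contains a cluster of odorant binding protein genes on the forward strand, which encode small carrier proteins secreted into the fluid around the olfactory neurons. LOC727000 was at 540, 538.5, 553, 502 and 491 CPM in control replicates 3 to 7 and at 808, 785, 779, 758 and 778 CPM in orco_KO replicates 3, 5, 9, 11 and 12. Both groups were narrow, with coefficients of variation of 5.10% and 2.28%. Obp2, inside it, had 8392 ± 3759 CPM in the controls against 9994 ± 2106 CPM in orco_KO, Obp6 at 1045 ± 488 and 1189 ± 291 CPM, Obp5 at 283 ± 188 and 251 ± 111 CPM, and Obp4 at 87.4 ± 23.6 and 155 ± 71.7 CPM (SD, n = 5). These scattered values stand against the even ones of the gene that surrounds them.

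Further overlaps on opposite strands also had ratios above 1. LOC411079 (ratio 1.73) overlaps LOC100578665 (1.34) and the long noncoding RNA LOC113218552 (1.38). LOC410468 (ratio 1.97) lies within the much longer LOC102655449, with 48.7 ± 6.07 CPM in the controls against 83.3 ± 25.9 CPM in orco_KO (SD, n = 5; ratio 1.71). In contrast, LOC100578621 (ratio 1.51) lies wholly within LOC551203 on the other strand, which was at 586 ± 53.9 and 551 ± 74.4 CPM.

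Markers of cell types differed between the groups in several directions in the same libraries, and their part in the levels of the 54 genes was not tested. The summed level of 7 neuron markers (Syt1, Cac, Camkii, Nrx-1, Para, brp and Syx1A) ran from 9665 to 14400 CPM in controls and from 4215 to 5214 CPM in orco_KO, with 6 of 7 lower on average. The single glial marker matched, Eaat-2, ran from 6.82 to 8.71 CPM and from 0.219 to 1.69 CPM. The 8 muscle markers (TpnI, TpnT, TpnCI, TpnCIIa, TpnCIIb, TpnCIIIa, TpnCIIIb and Argk) summed to 2506 to 4053 CPM in controls and 2856 to 5580 CPM in orco_KO. Of these 6 of 8 were higher on average. Argk, the highest of them in controls, was lower, with 1366 ± 146 CPM in controls against 669 ± 36.3 CPM in orco_KO. TpnCIIIb was also lower, with 13.1 ± 20.7 CPM against 4.64 ± 1.37 CPM. The 24 cuticle protein genes summed to 624 to 2139 CPM and 1465 to 3257 CPM, with 15 higher on average. The 12 mitochondrial genes summed to 82.6 to 251 CPM and 209 to 367 CPM, with 9 higher. The 5 fat body and hemolymph markers ran from 190 to 363 CPM and from 259 to 488 CPM with 4 higher, and the 4 opsins from 2.42 to 11.7 CPM and from 4.66 to 14.0 CPM with 3 higher. Odorant binding and chemosensory protein genes were listed here as markers of the antenna. Together with Or2 they summed to 11240 to 28605 CPM in controls and 16931 to 25433 CPM in orco_KO. CPR13, CPR21 and Obp14 were at 0 in every orco_KO library and Obp13 in every control. These genes were close to 0 in the other group too. Control means were 0.0185 CPM for CPR13 and for CPR21 and 0.0866 CPM for Obp14, and the orco_KO mean was 0.131 CPM for Obp13.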

How the data were processed

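For each library the authors deposited a table of raw gene counts. Per the file headers, reads were counted with featureCounts 2.0.0 over whole genes (introns included), with strand setting 2, on the Amel_HAv3.1 annotation with virus genomes added, and STAR 2.7.3a is listed per the submitters' processing notes. Reads that fall in overlapping genes on the same strand are left out under these settings. CPM here is the count divided by the library's sum over 12332 bee genes, without the 5 virus rows. Symbols and biotypes were looked up by coordinates in the RefSeq genes of Amel_HAv3.1, where 12331 genes matched. Promoter and protein sequences, and the search for motifs and protein families planned on them, were not used here.

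The members and lists were chosen with earlier results of these data known. Text names follow a rule: genes with a symbol, the 10 highest in level, in gap and in ratio, adjacent members, and 5 on each side of the limit. Genes named for overlap, neighbours, TMM values or outlying libraries were chosen after their values were seen. R 4.3.3 was used with edgeR 4.0.16 (filterByExpr, TMM, quasi-likelihood test, Benjamini-Hochberg adjustment) and DESeq2 1.42.0, and the edgeR step was tested on simulated data. Figures used matplotlib 3.10.9. SDs are over libraries. Alternatives changed scaling, limits, filters, tests and libraries.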

Additional observations from a re-analysis of the deposited data

Results flagged for a closer look

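In 10 of 108 groups examined (54 genes in 2 groups), 1 library stood apart from the other 4 by more than 0.71 of the group's range, where chance alone gives about 1 in 20. In orco_KO these were 8 (14.8%, against 4.94% of the 4981 genes within the limits), and in controls 2 (3.70%, against 3.75%). LOC410856 was at 96.4 CPM in replicate 11 and between 33.2 and 37.5 CPM in the others, and LOC413248 was at 70.8 CPM in replicate 11 and between 59.2 and 60.4 CPM in the others. Replicate 5 was high for LOC411009 (112 CPM, others 78.6 to 86.7), LOC724640 (43.8 CPM, others 29.9 to 33.8) and LOC113218532 (60.4 CPM, others 49.5 to 52.1). Replicate 12 was high for LOC100577795 (48.4 CPM, others 33.3 to 37.2) and LOC724378 (76.7 CPM, others 57.2 to 62.9), and replicate 9 for Emc (128 CPM, others 105 to 111). In controls, LOC410456 was low in replicate 3 (51.8 CPM, others 74.8 to 82.3) and LOC727081 was low in replicate 5 (134 CPM, others 161 to 171). All 8 outlying orco_KO values were high and both outlying control values were low. The rule itself removes genes with a low orco_KO library or a high control, and it shapes the spread within groups, so neither the count nor its direction is a result about these genes.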

How the results depend on the processing

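The number of genes that met the rule was 262 with a gap of 1, 4 with a gap of 1.5 and 126 without control replicates 6 and 7. Leaving out 1 library gave 58 to 83 genes, the latter without control replicate 4. It was 38 with TMM, of which 17 are among the 54, and 53 with DESeq2 size factors, of which 19 are. The limits on level and span and the removal of genes that overlap on the same strand gave 49 to 60. The median log2 ratio over the 54 was 0.80, and it was 0.86 with TMM, 0.91 with DESeq2 size factors, 0.87 as edgeR's log2 fold change, 0.76 without control replicates 6 and 7, and 0.78 to 0.83 when 1 library was left out. The number of genes called higher by edgeR over all tested genes was 421, and it was 755 by DESeq2 and 200 without control replicates 6 and 7. Leaving out 1 library gave 250 to 684, with 684 without control replicate 3, 250 without control replicate 6 or orco_KO replicate 3, and 276 without control replicate 7. Of the 54, 48 were called, 29 without control replicates 6 and 7, and 37 to 54 when 1 library was left out. The cause of these shifts was not tested. Replicate numbers 3 and 5 occur in both groups, and with the number as a block, which leaves only these 4 libraries to inform the contrast, 18 of the 54 and 375 of all genes were called higher. The labels do not say that a number marks a shared origin, and deviations from the group mean correlated at 0.16 for number 3 and 0.26 for number 5, while control replicate 3 correlated more with orco_KO replicate 5 (0.32).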
